A study of Mus musculus with 2 samples.

Results

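Among vehicle-treated leukemic promyelocytes from mice with the PLZF/RARA fusion, 154 cells carried RNA of several genes typical of basophils and mast cells. They were chosen by a marker rule: at least 2 of the 6 genes Il13, Cd200r3, Cd200r4, Slc6a4, Alox15 and Cma1 had at least 1 UMI (unique molecular identifier, the tag of 1 captured RNA molecule) in the cell. The rule was applied to the 5332 vehicle barcodes that had 1000 UMIs or more, 500 detected genes or more and a mitochondrial share between 0.1% and 10%. The 154 members were 2.89% of these cells (exact binomial 95% interval 2.46% to 3.37%), and the other 5178 cells served as the comparison. In the retinoic acid library 2 of 6650 kept cells met the same rule, a share of 0.0301% (0.00364% to 0.109%), out of 11982 kept cells in all. All intervals here cover counting error only.

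Basophils and mast cells are granulocytes of allergic and anti-parasite responses that store histamine, proteases and proteoglycans in granules and release them when the IgE receptor is crosslinked. Both depend on the transcription factor GATA2 and secrete type 2 cytokines such as IL-4 and IL-13. Basophils mature in the bone marrow and circulate, whereas mast cells complete their maturation in tissues, and eosinophils form a related lineage with its own granule proteins. A promyelocyte, in contrast, is a precursor on the neutrophil path that fills its primary granules with myeloperoxidase and serine proteases.

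The cells came from leukemic bone marrow. Progenitors transformed by PLZF/RARA, a fusion of the PLZF zinc finger protein with the retinoic acid receptor alpha, were sorted as Cd45.2+, C-Kit+, Gr1+, Cd34- and FcγR+ late promyelocytes in both groups. Mice of the vehicle group had intraperitoneal corn oil with 10% DMSO for 7 days, and those of the retinoic acid group had 0.8 to 1 mg of retinoic acid over the same time, in cohorts of 3 to 5 mice whose strain and age are not given in the labels. Each group was 1 droplet library prepared with 3′ chemistry for a target of 6000 cells, and how many mice entered a library is not stated. With 1 library per group no test between groups was possible, and since the cells within a library do not replicate a condition, their differences are given as levels and ratios without a test.

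The upstream sequences of the rule genes show the DNA next to which these transcripts start. RefSeq (GRCm38.p6) gave a start site for 5 of the 6 genes, and the 250 bases before each site are printed 5′ to 3′ on the gene's strand. All 5 windows lie outside the exons of GENCODE M21, that of Cd200r4 in an intron of a longer transcript. Capitals mark the letters GATA with A or T before and A or G after them, a hexamer that GATA factors are known to bind, searched on both strands.
Il13, chr11:53634703-53634952, minus strand: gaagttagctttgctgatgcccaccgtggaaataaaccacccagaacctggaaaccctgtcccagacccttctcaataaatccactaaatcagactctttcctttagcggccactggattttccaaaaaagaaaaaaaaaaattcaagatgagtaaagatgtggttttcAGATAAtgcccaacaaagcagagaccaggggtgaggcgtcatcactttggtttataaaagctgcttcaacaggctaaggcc
Cd200r3, chr16:44943428-44943677, plus strand: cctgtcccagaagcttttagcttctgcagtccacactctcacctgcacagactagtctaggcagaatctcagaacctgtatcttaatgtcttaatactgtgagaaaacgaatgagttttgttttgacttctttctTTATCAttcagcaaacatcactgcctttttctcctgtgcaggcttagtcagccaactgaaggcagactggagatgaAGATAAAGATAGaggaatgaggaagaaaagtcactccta
Cd200r4, chr16:44820478-44820727, plus strand: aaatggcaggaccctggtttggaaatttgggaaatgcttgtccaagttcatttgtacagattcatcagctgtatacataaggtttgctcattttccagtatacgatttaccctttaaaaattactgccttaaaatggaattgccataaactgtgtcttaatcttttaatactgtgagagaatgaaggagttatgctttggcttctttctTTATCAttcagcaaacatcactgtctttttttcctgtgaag
Slc6a4, chr11:76998347-76998596, plus strand: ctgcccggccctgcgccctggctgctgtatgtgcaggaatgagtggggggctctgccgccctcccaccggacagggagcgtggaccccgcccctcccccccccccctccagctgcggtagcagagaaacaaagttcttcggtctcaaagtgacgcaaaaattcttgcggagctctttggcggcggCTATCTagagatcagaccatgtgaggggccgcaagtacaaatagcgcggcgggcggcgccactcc
Cma1, chr14:55944676-55944925, minus strand: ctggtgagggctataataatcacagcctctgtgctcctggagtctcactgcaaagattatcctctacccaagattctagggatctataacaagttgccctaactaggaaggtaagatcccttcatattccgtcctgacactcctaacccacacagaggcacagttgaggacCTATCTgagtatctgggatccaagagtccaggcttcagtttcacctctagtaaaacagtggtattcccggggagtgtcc
Each of these 5 windows held at least 1 hexamer, and that of Cd200r3 held 3. Of all 32851 windows of this length in the table, 8718 (26.5%) held at least 1. Among 7 further genes, the windows of Hdc and Il4 held a hexamer, and those of Mcpt8, Gata2, Ly6g, Ccl6 and Akr1c18 did not. These windows are unlike those of the rule genes: Gata2, Il4 and Ly6g had 2 each. They held 250 exonic bases for Gata2, 89 for Ly6g, 76 for Mcpt8, 8 for Akr1c18 and 4 for Il4. A hexamer in a window is a description of its letters and was not tied to any measured binding.

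The vehicle file held 5786 barcodes and 99679545 UMIs, the retinoic acid file 7416 barcodes and 110443779 UMIs. Members were shallower than the other vehicle cells, with a median of 11304 against 16998.5 UMIs and 2647.5 against 3793.5 genes per cell. Their mitochondrial share was also lower, at a median of 1.46% against 2.05%. Summed, the members gave 2123830 UMIs and the others 95262976, and levels are given as CPM, the percent of a group's UMIs times 10000. Before the cell filter, 11 barcodes were shared in sequence between the 2 libraries, 1 of them a member's. Scrublet, a doublet caller, marked 2 of the 5332 cells (0.0375%) and was taken not to have worked. Of the 5% of cells with the highest scores, 14 were members (9.09% of members), against 4.87% of the other cells; the part of doublets in the results was not tested.

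The 6 rule markers describe how members were chosen and support nothing further. Cd200r4, an activating receptor of the CD200 receptor family, was detected in 134 members (87.0%) and in 2.86% of other cells. Cma1, a mast cell chymase, was detected in 83 members, and both Il13, a type 2 cytokine, and Slc6a4, the serotonin transporter, in 62. Cd200r3, an activating receptor carried by basophils and mast cells, was detected in 59 members and Alox15, a lipoxygenase, in 54. Il13 reached 32 UMIs in a single member and its summed level was 114 CPM in members. Of all Il13 UMIs in kept vehicle cells, 90.3% lay in members, and the corresponding share was 96.5% for Cd200r3 and 60.6% for Alox15. The retinoic acid library had no UMI of Il13 or Cd200r3 in kept cells, 38 of Cd200r4, 5 of Slc6a4, 15 of Alox15 and 3 of Cma1. Il13 lies at chr11:53631324-53634702, Slc6a4 at chr11:76998603-77032340 and Alox15 at chr11:70344152-70352031 (GRCm38). Cma1 lies at chr14:55941451-55944675, and the neighbours Cd200r4 and Cd200r3 at chr16:44811733-44839150 and chr16:44943678-44981380.

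Members differed in which markers they carried. They showed 41 combinations, of which the most frequent was Cd200r4 with Cma1 alone, in 21 cells. Il13 with Cd200r4 alone followed in 11 cells. Of the vehicle cells with Cd200r3, 58.1% also had Slc6a4, whereas of those with Alox15 20.2% did. Members with Slc6a4 had 1992 CPM of Ly6g and 773 CPM of Cpa3, a mast cell carboxypeptidase, while members with Cma1 had 518 CPM of Ly6g and 1365 CPM of Cpa3. Members with Cd200r3 had 2101 and 781 CPM, and those with Alox15 1781 and 904 CPM, of these genes. High Ly6g with lower Cpa3 thus held for the sets with Slc6a4, Cd200r3 and Alox15; a cell with several markers counts in several of these sets.

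Just inside the threshold stood 69 cells with 2 markers and just outside 287 cells with 1, beside 4891 with none. A further 42 cells had 3 markers, 26 had 4, 16 had 5 and 1 had all 6. Ly6g, part of the Gr1 antigen, was at 9.15 CPM in cells with no marker, 52.9 with 1, 393 with 2, 1195 with 3 and 1832 with 4 or more. Hdc, which makes histamine, was at 46.1, 170, 444, 626 and 1243 CPM in the same order. The protease gene Mcpt8, a basophil marker, was at 99.4, 272, 520, 828 and 912 CPM. These levels were higher at each further marker, and cells with 1 marker lay between those with none and those with 2. Cpa3 peaked at 2 markers, with 525, 1214, 1572, 991 and 721 CPM. Epx, the eosinophil peroxidase, followed no such order, with 33.9, 308, 282, 914 and 140 CPM. Ms4a3, a promyelocyte gene, was lower at each step, from 887 to 141 CPM, and Ctsg, cathepsin G, from 6604 to 2102 CPM. Depth did not follow this order, with median UMIs of 17130, 14319, 10847, 11658 and 12875.

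**Figure D1:**
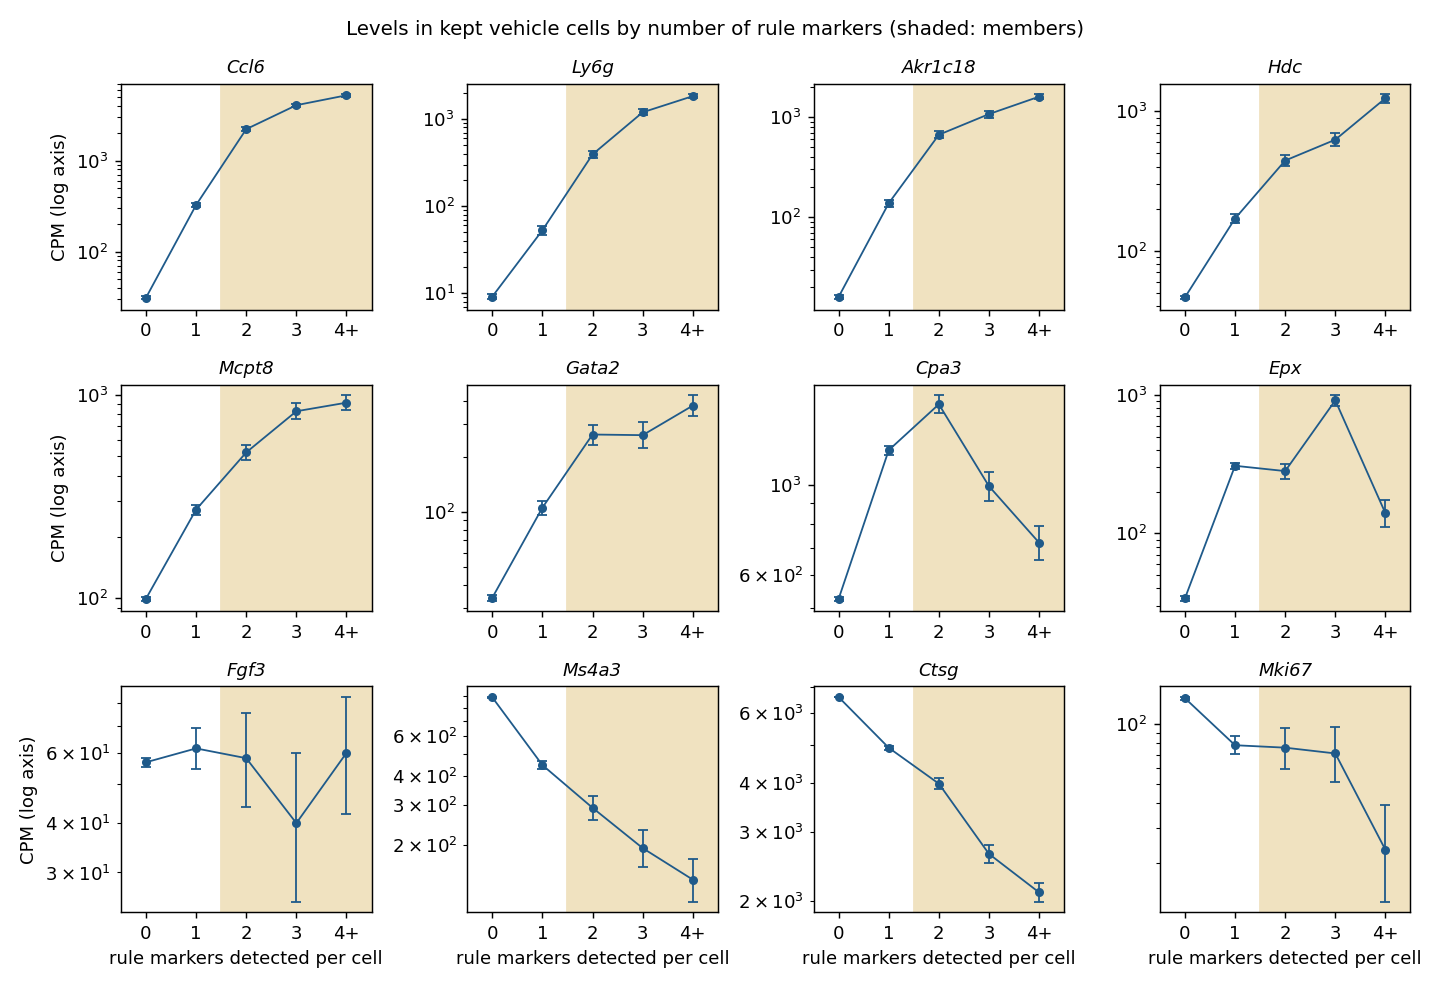
Summed level (CPM, log axis) of 12 genes outside the rule in kept vehicle cells with 0, 1, 2, 3 and 4 or more rule markers; bars are exact 95% Poisson intervals and the shaded groups are members. Ccl6, Ly6g, Akr1c18, Hdc and Mcpt8 are higher at each further marker, Cpa3 peaks at 2 markers, Epx is uneven, Fgf3 stays between 39.9 and 61.5 CPM, and Ms4a3 and Ctsg are lower at each step.

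Across the transcriptome, 5659 genes had at least 20 CPM in members or in the other cells. Of these, 407 (7.19%) were at least 2-fold higher in members and 652 (11.5%) at least 2-fold lower, counts that include the 6 rule genes, and the median log2 ratio of members over others was -0.24. Since 471 genes passed the 20 CPM limit through members alone, they were bound to be higher. Genes that passed through the other cells alone were likewise bound to be lower. Among the 5188 genes with at least 20 CPM in the other cells, 164 were 2-fold higher and 652 lower. This set still holds the genes bound to be lower, so the 2 counts are not an even contrast. Scaling by TMM, which trims extreme genes, moved the median by 0.18 and gave 541 higher and 419 lower genes, so higher genes made up 56.4% of these calls against 38.4%. The 10 deepest members weighed on both counts, with 517 genes higher and 1022 lower without them. At least 10-fold higher were 49 genes.

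**Figure D2:**
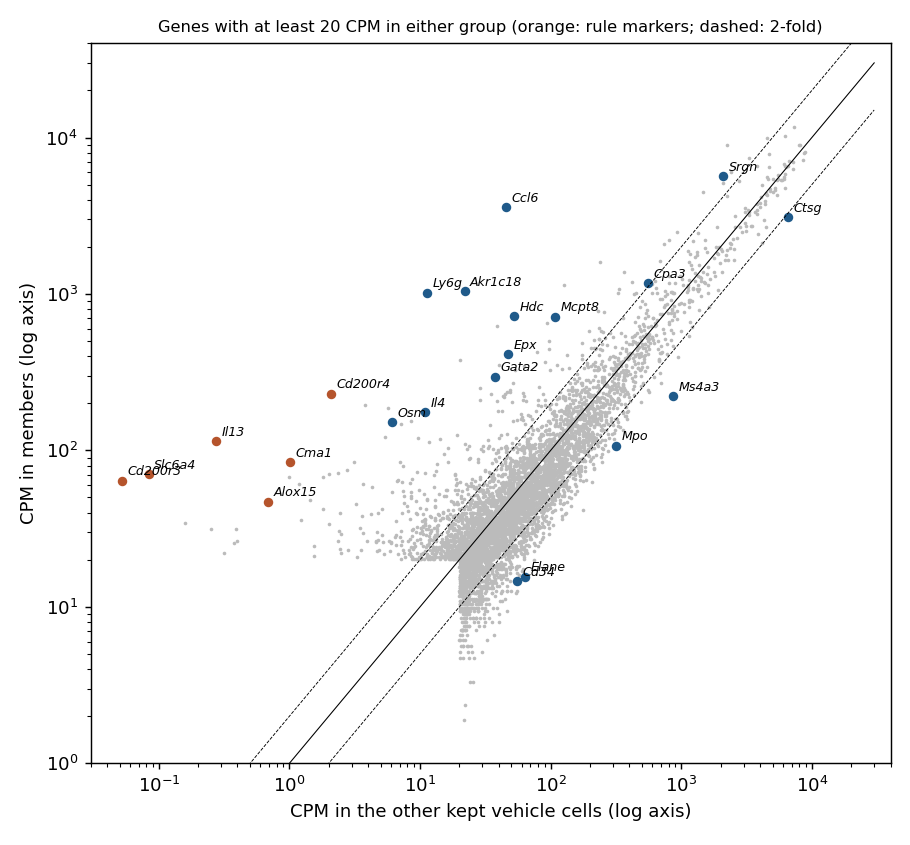
Level of each gene with at least 20 CPM in either group, in members (vertical, CPM, log axis) against the other kept vehicle cells (horizontal, CPM, log axis); dashed lines mark 2-fold and orange points the rule markers. Ccl6, Ly6g and Akr1c18 stand above the cloud at 3576, 1018 and 1041 CPM in members, while Cd34, Elane, Mpo and Ms4a3 lie below it.

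The gene with the highest ratio outside the rule was Ly6g, a surface protein of neutrophils. A member had a median of 3 Ly6g UMIs (quartiles 0 and 15.75, highest 237), and 104 of 154 members had at least 1. The other cells had a median of 0, with Ly6g in 449 of 5178. The summed level was 1018 against 11.3 CPM, a log2 ratio of 6.49 (95% counting interval 6.39 to 6.60). The 10 members with most Ly6g held 48.1% of its UMIs, so the level was uneven among members. The chemokine gene Ccl6 followed, with a median of 36.5 UMIs per member (quartiles 3 and 68.75, highest 347) and 0 in the other cells. Its summed level was 3576 against 45.4 CPM, a log2 ratio of 6.30 (6.24 to 6.35). Akr1c18, a steroid dehydrogenase that inactivates progesterone, had a median of 6 UMIs per member and 1041 against 22.0 CPM (log2 ratio 5.57).

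The remaining genes of the 15 highest ratios, taken among genes at 50 CPM or more in either group, fall into receptors, secreted factors and others. Il1rl1, the IL-33 receptor, was at 61.2 against 1.19 CPM, and Tnfrsf9, the costimulatory receptor 4-1BB, at 195 against 3.81 CPM. Cd200r1, the inhibitory member of the CD200 receptor family, was at 70.6 against 2.005 CPM, the UDP-glucose receptor gene P2ry14 at 187 against 5.72 CPM and the thrombin receptor gene F2r at 148 against 7.17 CPM. The cytokine genes Lif and Osm were at 67.8 and 151 CPM in members and at 1.82 and 6.07 CPM in the other cells. Phlda1, Hacd4, Avil (an actin-binding protein gene), Gzmb (granzyme B) and Cdkn2b, an inhibitor of cyclin-dependent kinases, completed the 15, with log2 ratios between 4.51 and 6.07. Its neighbour Cdkn2a was at 1141 against 127 CPM. Of these 15 genes, 14 were present in over 25% of members and in under 10% of other cells; the exception was Ccl6, seen in 20.2% of the others.

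The basophil markers were mostly higher in members. Of 23 listed genes, 20 had at least 10 counts, and all 20 had a ratio above 1, with a median log2 ratio of 2.69 against -0.32 over the 13682 genes with that many counts. At 20 CPM in either group stood 16 of the 23, of which 11 were at least 2-fold higher and 0 lower. Over all genes 7.19% were higher and 11.5% lower, and 5 of the 16 passed through members alone. Mcpt8 had a median of 5 UMIs per member against 1, and 714 against 108 CPM (log2 ratio 2.73, 2.65 to 2.81). Hdc was at 719 against 52.2 CPM (3.78, 3.70 to 3.87), in 88.3% of members and 41.2% of other cells. Il4, the type 2 cytokine, was at 176 against 10.99 CPM and Il6 at 48.5 against 1.45 CPM. Cyp11a1, the first enzyme of steroid synthesis, was at 1591 against 238 CPM and was detected in 98.7% of members. Cd24a and Lilrb4a were at 326 against 53.2 and 271 against 51.9 CPM, and Il3ra, the IL-3 receptor alpha chain, at 102 against 58.8 CPM.

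Some defining markers had few or no counts. Fcer1a, the IgE-binding chain of the high-affinity receptor, had no count in any barcode of either library, and the basophil protease gene Prss34 had 0 counts in members and 6 in all vehicle barcodes. Ms4a2, the receptor's beta chain, was at 6.59 CPM in members (14 UMIs, in 5.84% of cells) against 1.34 CPM. Ctsc, a protease that activates the granule enzymes abundant in these cells, also had no count in the vehicle library, so a 0 in this table is read only as a listed 0.

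Mast cell genes were divided. Of 27 listed, 14 had at least 10 counts, of which 11 were higher in members, 1 lower and 2 undetermined at 0 counts in members, with a median log2 ratio of 1.86. At 20 CPM in either group stood 8, of which 7 were at least 2-fold higher and 0 lower. Over all genes 7.19% were higher and 11.5% lower, and 4 of the 8 passed through members alone. The basophil list shares 5 of the 27, among them Hdc, Gata2 and Il1rl1, which are counted in the 7 higher genes. Srgn, the granule proteoglycan serglycin, was at 5680 against 2091 CPM (log2 ratio 1.44), and Cpa3 at 1173 against 558 CPM (1.07, 1.01 to 1.13). Gzmb was at 74.9 against 2.78 CPM and Adora3, an adenosine receptor, at 30.6 against 2.38 CPM. Kit, the stem cell factor receptor that mast cells keep, was at 22.6 against 19.3 CPM, with an interval of the log2 ratio from -0.22 to 0.64. The chymase and tryptase genes Mcpt1, Mcpt2, Mcpt4, Mcpt9, Cma2, Tpsab1, Tpsb2 and Tpsg1, the receptor gene Mrgprb2 and the serotonin synthesis gene Tph1 had no count in either group. Mitf, a mast cell transcription factor gene, was at 0.942 CPM (2 UMIs) against 1.69 CPM.

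Eosinophil granule genes were also present. Of the 10 genes on the list, 4 had at least 20 CPM in either group, and all 4 were at least 2-fold higher in members. Over all genes 7.19% were, and 2 of the 4 passed through members alone and had to be higher. Epx was at 413 against 47.3 CPM (log2 ratio 3.13) and Prg2, the major basic protein gene, at 208 against 38.9 CPM (2.42). Epx was confined to part of the members: 56 had it, and the 10 with most held 63.0% of its UMIs. Those 56 cells had 562 CPM of Prg2 and 14.2 CPM of Gzmb, and the other members had 4.45 and 110 CPM. Mcpt8 was at 924 and 594 CPM and Ccl6 at 4254 and 3185 CPM in these sets, so these genes were high in both. Prg3 and Ear6 were at 23.5 and 12.2 CPM against 8.80 and 3.93. Against other cells weighted to the members' depth their log2 ratios were -0.068 and -0.15, and the cause of this change was not tested.

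Secreted factors stood out among the remaining groups. Of 8 cytokine and chemokine genes with at least 20 CPM, 7 were at least 2-fold higher in members and 0 lower. Over all genes 7.19% were higher and 11.5% lower, and 5 of the 8 passed through members alone. Besides Il4, Il6, Lif and Osm, the 7 higher genes were Ccl9, Ccl3 and Csf2, which encodes GM-CSF. Ccl9 was at 623 against 38.6 CPM, Ccl3 at 31.5 against 0.388 CPM and Csf2 at 50.8 against 20.5 CPM. Tgfb1 was level, at 280 against 293 CPM. Il3 and Il9 had no count in any barcode of either library.

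Of 12 cytokine and chemokine receptor genes, 6 were higher by 2-fold or more and 0 lower, against 7.19% and 11.5% of all genes. Of the 7 that had 20 CPM in the other cells, 2 were higher, as were 164 of all 5188 such genes. The other 5 receptor genes passed through members alone. Csf2rb, the beta chain shared by the IL-3, IL-5 and GM-CSF receptors, was at 512 against 235 CPM, and Csf2rb2, the beta chain of the mouse IL-3 receptor, at 209 against 28.7 CPM. Il18r1 was at 52.3 against 10.8 CPM and Il4ra at 32.5 against 9.43 CPM. Of 13 genes of IgE receptor signalling, 5 were at least 2-fold higher, namely Fyn, Lat, Lat2, Lcp2 and Gab2, and 0 lower; of the 11 with 20 CPM in the other cells 3 were higher, and 2 passed through members alone. The adaptor gene Lat2 was at 350 against 113 CPM. Fcer1g, the receptor's gamma chain, was at 1857 against 1310 CPM (log2 ratio 0.50), and the kinase genes Lyn and Syk were near level, at 0.04 and 0.06. Tyrobp, the adaptor of activating CD200 receptors, was at 2491 against 921 CPM.

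In eicosanoid synthesis 5 of 6 genes were higher by 2-fold or more and 1 was lower, against 7.19% and 11.5% of all genes. Of the 6, 2 passed through members alone. Alox5 and Alox5ap, which start leukotriene synthesis, were at 126 against 41.7 and 2074 against 742 CPM. Tbxas1, thromboxane synthase, was at 41.9 against 5.11 CPM, whereas Lta4h, which makes leukotriene B4, was at 134 against 310 CPM. Hdc was the 1 histamine and serotonin gene at 20 CPM, and the vesicular transporter gene Slc18a2 had 3 UMIs in members.

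Among 19 lineage transcription factor genes, 5 were higher by 2-fold or more and 2 lower, and the share of lower genes was near that over all genes. Of the 15 with 20 CPM in the other cells, 2 were higher and 2 lower; 4 passed through members alone. Gata2 had a median of 3 UMIs per member (highest 23) against 0, and 296 against 37.6 CPM (log2 ratio 2.98, 2.85 to 3.10). Its relative Gata1 was at 41.9 against 11.2 CPM, Id2 at 249.5 against 28.9 CPM, Nfil3 at 84.3 against 16.4 CPM and Bhlhe40 at 59.8 against 18.9 CPM. The lower genes were Lmo2, at 63.1 against 209 CPM, and Gfi1, a factor of neutrophil development, at 28.2 against 76.9 CPM. Cebpe, which drives secondary granule genes, was at 307 against 402 CPM, and Spi1 was near level, at 213 against 171 CPM. Of 11 immediate early genes, 8 were higher by 2-fold or more and 0 lower, against 7.19% and 11.5% of all genes. However, 4 of the 11 passed through members alone, and of the other 7 genes 4 were higher. Among them, Ier3 was at 207 against 64.9 CPM and Junb at 117 against 32.9 CPM, while Egr1, which passed through members, was at 24.5 against 1.54 CPM.

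**Figure D3:**
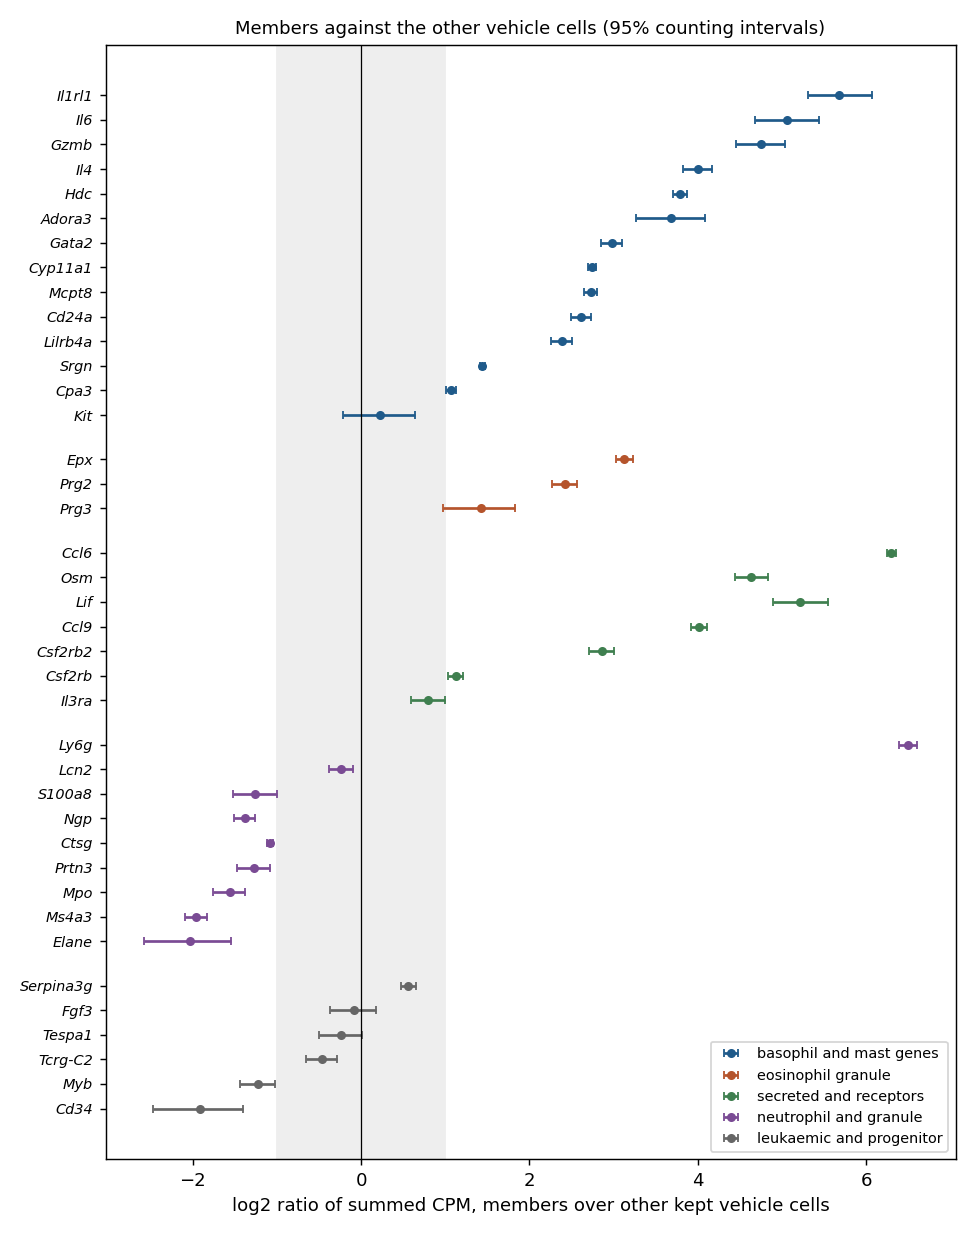
Log2 ratio of summed CPM, members over the other kept vehicle cells, for 39 genes by role; bars are 95% counting intervals and the grey band marks less than 2-fold. Basophil, mast, eosinophil and secreted factor genes lie mostly to the right, Ly6g at 6.49 is far from the other neutrophil genes, and Elane, Cd34 and Ms4a3 lie at -2.04, -1.91 and -1.96.

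Genes of the promyelocyte program were lower. All 6 measured primary granule genes were at least 2-fold lower in members, against 11.5% of all genes. Their median log2 ratio was -1.42, or -2.71 without the 10 deepest members. Under TMM 5 of the 6 were at least 2-fold lower, all except Ctsg. Ms4a3 had a median of 0 UMIs per member (quartiles 0 and 1, highest 52) and of 11 in the other cells (quartiles 3 and 24), and was at 223 against 865 CPM (-1.96, -2.09 to -1.83). Mpo, myeloperoxidase, was at 107 against 317 CPM, and 10 members held 94.7% of its UMIs. Elane, neutrophil elastase, was at 15.5 against 63.7 CPM, so it passed 20 CPM through the other cells alone and was bound to be lower. Ctsg was at 3081 against 6521 CPM, still detected in 85.7% of members.

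Neutrophil maturation genes did not follow Ly6g. Of 7 with at least 20 CPM, 4 were at least 2-fold lower in members, namely Camp, Ngp, S100a8 and S100a9, and 2 were higher, Ly6g and Cxcr2, both of which passed through members alone. These are ratios of summed counts, and the other cells' sum includes the neutrophil-rich cells described below, whose part was not tested. Per cell, the median share of UMIs in this list, Ly6g included, was 0.0580% in members and 0.0356% in other cells. Ngp, a secondary granule gene, was at 269 against 703 CPM and S100a8 at 57.9 against 138 CPM, while Cxcr2, a chemokine receptor, was at 33.4 against 16.4 CPM. The 52 other vehicle cells with at least 5% of their UMIs in this list, Ly6g left out of the sum, had 547 CPM of Ly6g and 965 CPM of Ccl6, but 2.10 CPM of Mcpt8, 16.8 of Hdc and 2.10 of Akr1c18. No member was among these cells. Summed over all members, Ly6g and Ccl6 were above these levels, but the 69 members with 2 markers had 393 CPM of Ly6g. At 5000 UMIs per cell Ly6g was seen in 52.6% of members and 45.2% of the neutrophil-rich cells (29.8% to 61.3%).

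Cell cycle genes were lower as well. Of 32 S phase genes 25 were at least 2-fold lower in members and 0 higher, against 11.5% and 7.19% of all genes. Their median log2 ratio was -1.42 over all 42 listed. Of 41 G2/M genes 26 were lower and 0 higher, with a median of -1.04 over 52. Under TMM 23 S phase and 13 G2/M genes were lower by that much. Mcm5, a subunit of the replication helicase, was at 15.1 against 65.6 CPM and Mki67, the proliferation marker, at 59.8 against 132 CPM. In the other cells 31 of the 32 S phase genes and 40 of the 41 G2/M genes had 20 CPM. Those under 20 CPM in members, such as Mcm5, passed through the other cells alone and were bound to be lower. In cells thinned to 5000 UMIs, Mki67 was seen in 11.7% of members (16 of 137) and 29.0% of other cells. The other genes among the 15 lowest ratios included the growth regulator Myc, at 36.3 against 121 CPM, the receptor gene Trem3 at 12.2 against 54.1 CPM, haptoglobin (Hp) at 41.4 against 177 CPM and the purine synthesis gene Gart at 19.8 against 74.6 CPM. Timm10, Ipo5, Atad3a, Rrp1b, Cenpm, Ifrd2 and Lmo2 completed them, with Elane, Ms4a3, Mcm5 and Cd34, at log2 ratios between -2.14 and -1.73.

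Of 6 stem and progenitor genes with at least 10 counts, 5 had a ratio below 1 and 1, Kit, above 1. At 20 CPM in either group stood 4, of which 3 were lower by 2-fold or more and 0 higher. Over all genes 11.5% were lower, and Kit passed through members alone. Cd34 was at 14.6 against 55.0 CPM and Myb at 90.9 against 212 CPM. Of these genes, Cd34 passed 20 CPM through the other cells alone and was bound to be lower. Of 10 genes that an earlier look at these libraries had named as high in vehicle, 8 had a ratio below 1 and 2 above 1. Their median log2 ratio was -0.81. By 2-fold or more, 5 were lower in members and 1, Cpa3, higher. Fgf3 was at 53.7 against 57.0 CPM, Tespa1 at 59.3 against 70.0 CPM and Serpina3g at 459 against 311 CPM. Members thus kept these 3 transcripts, which stood at 0.719, 0.499 and 6.26 CPM in the retinoic acid library. That list was chosen on these samples and is no independent evidence.

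The antigens used in the sort were present in members as RNA. Ptprc, which encodes CD45, was at 116 against 100 CPM, and Ly6c2, the other part of the Gr1 antigen, at 7832 against 4659 CPM. Fcgr3, an Fcγ receptor gene, was at 244 against 49.0 CPM and Fcgr2b at 129 against 123 CPM. Of the fusion partners, Rara was at 33.0 against 10.6 CPM (log2 ratio 1.64, 1.27 to 1.99) and Zbtb16 at 8.004 against 9.93 CPM (17 UMIs in members). The counts do not separate reads of the fusion from reads of the normal genes.

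Markers of other lineages mostly stayed under 20 CPM. Of 12 monocyte and macrophage genes, Adgre1 alone reached 20 CPM, at 159 against 71.8 CPM. Of the dendritic cell list Bst2 reached it, at 170 against 265 CPM, and of the megakaryocyte list Itga2b, at 49.0 against 28.4 CPM. No B cell or erythroid gene on the lists reached 20 CPM; their summed levels were 14.1 and 22.1 CPM in members and 7.29 and 3.89 CPM in the other cells. Thy1 and Nkg7 of the T cell and innate lymphoid list were at 506 against 606 and 1352 against 1280 CPM, and Gata3 and Il7r did not reach 20 CPM.

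Clustering without the 6 rule genes placed most members together. Of 5 clusters, 1 with 499 cells held 135 members (87.7%, 81.4% to 92.4%), and members were 27.1% of it. Its 10 leading genes were Prg2, Gzmb, Ccl6, Tnfrsf9, Ear6, Ly6g, Akr1c18, Prg3, Il1rl1 and Gpr183, among which 3 were eosinophil markers and 3 were markers of other classes, so it was given no cell type name. It held 5.03% of the cells with no marker, 41.1% of those with 1, 82.6% with 2, 90.5% with 3 and 93.0% with 4 or more. Because this clustering used the genes described above, it is a description of the same counts.

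The members in and outside that cluster differed. The 135 inside had 13.9 CPM of Mpo, 62.4 of Ms4a3 and 2.65 of Mki67, and 3 of them had a Mki67 UMI. The 19 outside, of which 17 lay in a cluster led by the mitotic genes Ube2c, Nusap1 and Cenpf, had 336, 615 and 200 CPM, and 18 had a Mki67 UMI. Ccl6 was at 4815 CPM inside and 547 outside, Ly6g at 1330 and 255, Hdc at 920 and 229, while Mcpt8 was at 762 and 597 CPM. Outside members were deep, with a median of 30118 UMIs against 10637, and 19 cells held 29.0% of all member UMIs. They made up 11 of the 14 members with the highest doublet scores and 8 of the 10 deepest members. The part of doublets in their values was not tested. G2/M genes summed to 966 CPM in the 135 members alone, 7396 CPM in the 19 and 5752 CPM in the other cells outside the cluster, and primary granule genes to 2301, 7086 and 8553 CPM.

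**Figure D4:**
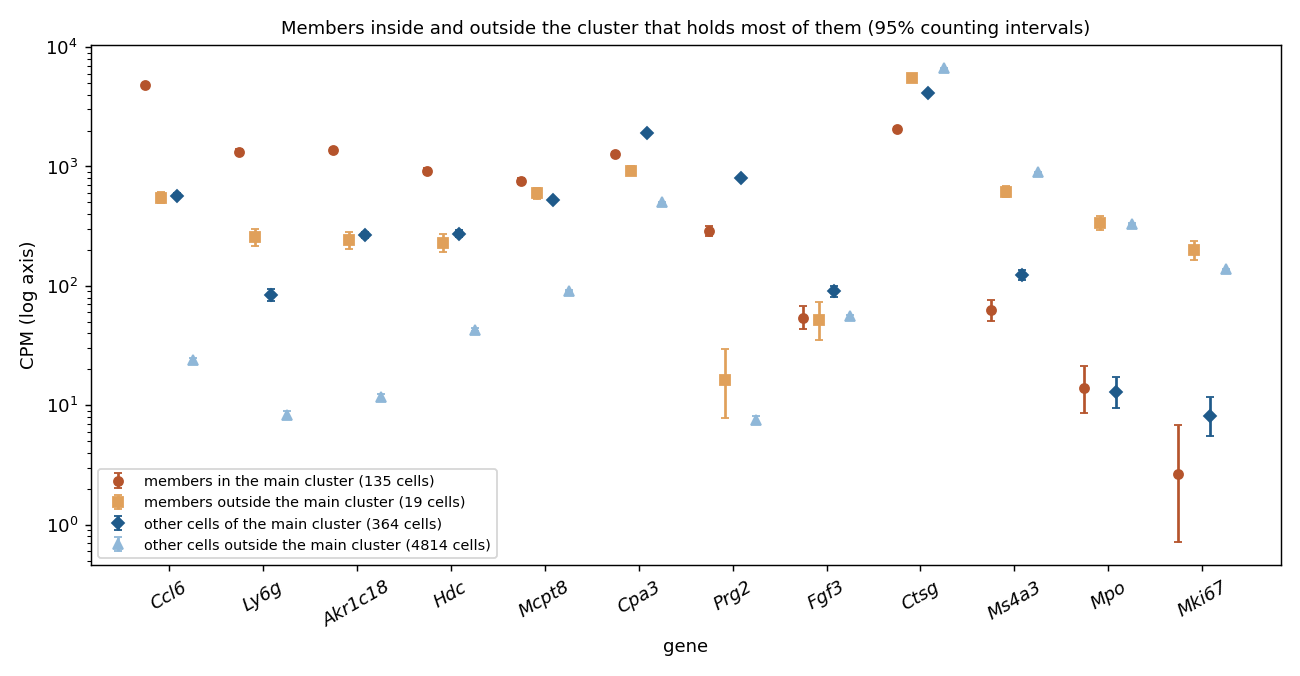
Summed level (CPM, log axis) of 12 genes in members inside and outside the cluster that holds most members and in the other cells inside and outside it; bars are exact 95% Poisson intervals. The 135 members inside have the highest Ccl6, Ly6g, Akr1c18 and Hdc, and the 364 other cells inside have more Prg2 and Cpa3. The 19 members outside have Mpo near the level of the other cells outside. Their Ms4a3 is lower, at 615 against 896 CPM, and their Mki67 higher, at 200 against 137 CPM.

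The 364 other cells of the cluster resembled members in part. They had 525 CPM of Mcpt8 and 274 of Hdc, and their Mpo and Mki67 were at 12.97 and 8.21 CPM. Prg2 summed to 799 CPM in them and 287 CPM in the members inside, but rested on few cells: it was seen in 26.1% and 16.3% of these cells. Over the library, 10 members held 90.0% of the members' Prg2 UMIs and 10 other cells 59.1% of the others'. Epx was at 706 CPM in the other cells of the cluster, in 53.6% of them, against 517 CPM in 36.3% of the members inside. The eosinophil list summed to 1752 against 886 CPM, so this trait was not particular to members. Also higher in the other cells of the cluster were Cpa3, at 1923 against 1276 CPM, and Ctsg, at 4094 against 2068 CPM. Ccl6 was at 570 against 4815 CPM and Ly6g at 83.7 against 1330 CPM, so the members inside were the part of the cluster with high Ly6g and Ccl6.

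Free RNA in droplets was not separated from RNA of the cell, and shares of cells were therefore set beside the neutrophil-rich cells. At 5000 UMIs per cell, which left 137 members, 5009 other cells and 42 neutrophil-rich cells and left out 17 members and 169 others, Mcpt8 was seen in 75.2% of members, 29.6% of other cells and 0 of the 42 (upper limit 8.41%). Hdc was seen in 76.6%, 19.98% and 2.38%, and Gata2 in 63.5%, 15.2% and 0%. Akr1c18 was seen in 66.4%, 4.61% and 0%, and Ccl6 in 79.6%, 7.95% and 52.4%. Il4, in 36.5% of members and 6.13% of others, was also seen in 4.76% of the 42 cells, whose interval reached 16.2%. For Akr1c18 the 0 of 42 allows up to 8.41%. With 42 cells it cannot be decided whether the shares of Il4 and Akr1c18 in other cells lie above free RNA. Ccl6 was seen in 52.4% of the neutrophil-rich cells, so they cannot serve as a background for it. Unthinned, Mcpt8 was seen in 81.2% of members and 60.0% of other cells. Of the 137 members 65.7% had Cpa3 without Mpo and 5.84% had both, against 48.0% and 9.44% of other cells.

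In the retinoic acid library as a whole, many of these genes were low. Its kept cells had 0.106 CPM of Cpa3, 1.72 of Hdc, 1.15 of Gata2, 0.144 of Il4 and 0.144 of Akr1c18, against 558, 52.2, 37.6, 10.99 and 22.0 CPM in the vehicle cells outside the rule. Mcpt8 was nearer, at 63.1 against 108 CPM, and Ly6g was at 277 against 11.3 CPM. With 1 library a group these levels have no replicate check, and fewer cells of a type and less RNA per cell cannot be told apart in a sum. Genes with close relatives, among them the CD200 receptors, Mcpt8, Csf2rb with Csf2rb2, Ly6g with Ly6c2, Ear6 and Serpina3g, carry added uncertainty, as reads may have been shared out between near copies.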

How the data were processed

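Single-cell RNA was measured in 1 vehicle and 1 retinoic acid library. The authors deposited unnormalised UMI counts for each gene and cell, made with Cell Ranger 4.0.0 on builds mm10 and GRCm38.p4, per the submitters' processing notes; the calling of cells is not given in the sources used here. Of 32285 gene IDs, 32235 matched GENCODE M21 (GRCm38), used for positions.

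Counts were summed over members and over other cells and scaled to CPM with no test. Ratios carry a prior of 1 count in all, shared in proportion to the 2 totals, and exact conditional 95% intervals. This prior was chosen after a first look at the data in place of 0.5 counts on each sum, which raised genes with few counts. A count of 0 allows 3, or 1.41 CPM in members. Calls needed 20 CPM in either group and a 2-fold ratio; list medians needed 10 counts. Named were the rule genes, the sorted antigens and fusion partners, list genes at 20 CPM, basophil, mast cell and eosinophil genes at any level, and the 15 highest and 15 lowest ratios among genes with at least 50 CPM. Cdkn2a, Il3, Il9, Ctsc and genes at 0 were added after their values were seen. The members and the 25 lists were chosen with earlier results of these data known.

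Clustering used counts scaled to 10000 per cell, 2000 variable genes without the rule genes, 30 principal components, 15 neighbours and Leiden resolution 0.5 (scanpy 1.11.5). Naming a cluster required 3 or more markers of 1 class among the 10 leading genes, outnumbering those of all other classes; the last condition was added after seeing the data. No doublets were removed. TMM came from edgeR 4.0.16. Calculations ran in Python 3.11.15 with numpy 2.4.6, scipy 1.17.1 and pandas 2.3.3 and were tested on simulated data.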

Additional observations from a re-analysis of the deposited data

Results flagged for a closer look

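Of the vehicle barcodes outside the cell filter, 6 also met the marker rule, which is a signal in barcodes the comparisons do not use. Of these, 5 had under 0.1% mitochondrial UMIs and between 2315 and 12310 UMIs, with 2 or 3 markers each, and 1 had 712 UMIs and 7.30% mitochondrial UMIs. In the retinoic acid library 2 barcodes outside the filter met the rule.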

How the results depend on the processing

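No paired analysis was possible because the series has 1 library a group and the cells carry no replicate number. The share of 2.89% was 8.27% with at least 1 marker and 1.59% with at least 3. It was 1.89% and 2.27% with the rule run on 5 markers, Cd200r4 or Cma1 left out, and 1.65% in cells thinned to 5000 UMIs before the rule. Genes at least 2-fold higher numbered 674, 134 and 1726 at limits of 5, 100 and no CPM, and those lower 1360, 138 and 7013. The lower genes numbered 1014 with equal weight for every cell, 1034 after thinning, 1084 without the 5% highest doublet scores, 419 under TMM and 1022 without the 10 deepest members. In the same order the higher genes numbered 527, 533, 526, 541 and 517. Primary granule genes had a median of -2.48 with equal weight, -2.17 after thinning, -1.83 with at least 3 markers, -2.77 without the highest doublet scores, -1.24 under TMM and -2.71 without the 10 deepest members. Without the highest doublet scores the S phase and G2/M medians were -2.04 and -1.84. The cluster held 80.5% of members with 15 principal components. Against other cells weighted to the members' depth, Ear6 and Prg3 turned to -0.15 and -0.068, and with 0.5 counts on each sum Rab27b, at 0 counts in members, turned to 0.96. The cause of these changes was not tested. In all, 1869 of 2612 alternative values stayed within their counting interval or, for counts of genes, within 1.5 times; 740 moved further and 3 turned sign. Leaving out cells with 1 marker, the 10 deepest members and the 0.5 counts were alternatives chosen after seeing the data. Depth limits genes under about 42.5 UMIs in members, the number that 20 CPM comes to.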
